A study of Mus musculus with 9 samples.

Results

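The canonical Polycomb repressive complex 1 (PRC1) was followed at the RNA level through 9 of its subunit genes, namely Cbx2, Cbx6, Cbx7, Cbx8, Bmi1, Pcgf2, Phc1, Phc2 and Phc3. They were picked out by symbol, with no measured value in the rule, though with earlier results of these data known. They are 9 of the 25239 gene symbols counted. All 9 had enough reads to be tested, among 14125 tested genes. RNA-seq was performed on mouse E14 embryonic stem cells (ESCs), whose strain the labels give as 12910la, grown in medium with serum and leukemia inhibitory factor. The control had the genotype Rbbp4+/+, and the mutants were Rbbp4 Ins/Ins (Ins/Ins below), with a short in-frame insertion in each allele, and Rbbp4 Ins/Del (Ins/Del below), with that insertion on a single allele and an in-frame deletion on the other. Rbbp4 encodes a histone-binding WD40 protein shared by PRC2, histone deacetylase and chromatin assembly complexes. Each mutant line was 1 clone made with Cas9 and transient puromycin selection, so clone and genotype cannot be told apart. Each line had 3 libraries, all E14-derived and grown in the same medium. The labels do not say that libraries of a line came from separate cultures, so the p-values measure the spread between these libraries, which may be technical.

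Canonical PRC1 is built from a RING protein, which adds ubiquitin to histone H2A, and 3 further kinds of subunit. CBX proteins carry a chromodomain that binds histone H3 trimethylated at lysine 27, the mark that PRC2 deposits. PCGF proteins, here Bmi1 and Pcgf2, pair with the RING protein, and PHC proteins have a SAM domain that polymerises and brings PRC1-bound chromatin together. Paralogs compete for each place in the complex, and in ESCs Cbx7 is known as the main CBX subunit while other CBX genes are raised on differentiation. Variant PRC1 complexes contain Rybp or Yaf2 in place of CBX and PHC.

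Library totals lay between 15838064 and 21366868 counted reads. Values are given as normalized counts, that is, reads divided by the effective library size and scaled to the mean of the 9 libraries. Rbbp4 itself had 9932, 9965 and 10117 normalized counts in the control, 5485, 5551 and 5776 in Ins/Ins and 10129, 10344 and 10603 in Ins/Del. On the log2 scale Rbbp4 differed from the control by -0.84 in Ins/Ins (adjusted p = 1.78e-25) and by 0.05 in Ins/Del (adjusted p = 0.107) by the edgeR quasi-likelihood test (Benjamini-Hochberg). The alleles are small in-frame changes, so this count is no check of the labels. Of the exon bases of Rbbp4, 8.94% overlap Sync and 9.1% overlap Gm26722. Both lie on the other strand, and whether reads were counted by strand is not given.

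The ESC markers Pou5f1, Sox2, Nanog and Zfp42 were abundant in every library, and the summed level of 10 pluripotency markers lay at 80189 to 83498 normalized counts in the control, 99657 to 100313 in Ins/Ins and 101483 to 104487 in Ins/Del. Of these 10, 6 rose and 2 fell in Ins/Ins, where 29.0% of all tested genes were higher and 29.4% lower, and 5 rose and 1 fell in Ins/Del, where 30.6% and 31.9% did. Markers of other cell types also moved with the groups. The sum of 7 trophectoderm markers was 4893 to 5352 in the control, 2652 to 2819 in Ins/Ins and 1813 to 1888 in Ins/Del, and the sum of 5 neural progenitor markers was 2932 to 2973, 527 to 551 and 474 to 498. For 7 feeder fibroblast markers the sums were 578 to 678, 256 to 283 and 342 to 364, and for 7 primitive endoderm markers 371 to 399, 210.4 to 271 and 316 to 346. Members of a list went opposite ways. The collagens Col1a1, Col1a2 and Col3a1 fell by 3.55 to 5.31 on the log2 scale. The fourth feeder marker tested, Thy1, rose by 2.43 and 2.77 in Ins/Ins and Ins/Del. Gata4 fell by 1.56 and 1.05 and Dab2 by 1.35 and 1.29, whereas Sox7 rose by 1.63 and 2.22. Gata6, Sox17 and Pdgfra were called higher in Ins/Del alone. Krt8 (-2.69 and -3.00) and Krt18 (-2.45 and -2.98) made up most of the trophectoderm sum in the control. Cdx2 also fell in both lines and Gata3 in Ins/Ins. Eomes rose by 0.74 and 0.49, and Tfap2c rose by 0.48 in Ins/Ins and fell by 0.21 in Ins/Del. Of the neural progenitor markers, Pax6, Nes and Map2 fell in both lines. Sox1 was called in neither, with log2 differences of -0.09 in Ins/Ins and 0.27 in Ins/Del. These calls stand beside the shares of all tested genes given above. Of all these markers of other cell types, Neurog2 in Ins/Del was alone in having no read in any library of a group. Postn, Lum, Dcn, Foxa2, Elf5 and Neurog2 had too few reads to be tested. Their part in the values below was not tested, and in bulk RNA fewer cells of a type and less RNA per cell cannot be told apart.

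Promoter sequences are shown first for the PHC genes, which fill the same place in the complex and had opposite differences from the control. They are the 250 bases upstream of the annotated transcription start, from RefSeq on GRCm38.p6 (mm10), written 5′ to 3′ along the gene, with the sequence CACGTG (the E-box bound by basic helix-loop-helix factors such as Max and Usf1) in capitals. For Phc2 the first of its 3 annotated starts is shown.
Phc1 (chr6:122340228-122340477, minus strand): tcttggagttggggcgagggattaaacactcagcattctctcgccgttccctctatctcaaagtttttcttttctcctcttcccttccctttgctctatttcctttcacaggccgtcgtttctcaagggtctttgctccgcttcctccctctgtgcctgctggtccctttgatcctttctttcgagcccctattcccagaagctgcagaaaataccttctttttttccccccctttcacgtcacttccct
Phc2 (chr4:128654452-128654701, plus strand): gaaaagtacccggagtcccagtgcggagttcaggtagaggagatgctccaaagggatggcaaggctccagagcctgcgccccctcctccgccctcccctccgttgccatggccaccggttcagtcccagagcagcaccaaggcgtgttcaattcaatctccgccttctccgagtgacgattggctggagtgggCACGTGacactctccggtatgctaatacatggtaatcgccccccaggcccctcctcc
Phc3 (chr3:30969416-30969665, minus strand): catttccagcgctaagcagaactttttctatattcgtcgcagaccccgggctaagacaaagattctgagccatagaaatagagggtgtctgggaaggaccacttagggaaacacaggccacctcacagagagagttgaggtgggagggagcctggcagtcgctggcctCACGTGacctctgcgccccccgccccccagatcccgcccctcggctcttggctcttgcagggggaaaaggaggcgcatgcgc

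The upstream 250 bases of Phc1 have no capitals, whereas those of Phc2 and Phc3 have 1 E-box each, with 51 and 76 bases between it and the start. The E-box was chosen after the promoter letters had been read, and for the remaining genes that have it 60 bases around it are shown.
Bmi1 (chr2:18676776-18676835, plus strand): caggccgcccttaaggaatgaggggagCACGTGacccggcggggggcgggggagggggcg
Pcgf2 (chr11:97699753-97699812, minus strand): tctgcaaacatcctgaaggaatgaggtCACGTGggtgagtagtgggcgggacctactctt
Cbx6 (chr15:79834327-79834386, minus strand): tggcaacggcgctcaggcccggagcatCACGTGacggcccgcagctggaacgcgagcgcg
Cbx8 (chr11:119040979-119041038, minus strand): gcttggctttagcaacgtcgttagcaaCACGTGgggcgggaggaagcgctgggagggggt

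RefSeq promoter windows of 300 bases (250 before and 50 after the start) were at hand for 8 of the 9 genes, all but Cbx2, and for 10 starts in all. CACGTG, which reads the same on both strands, was in 6 of these 10 windows, belonging to Bmi1, Cbx6, Cbx8, Pcgf2, Phc2 and Phc3, and not in those of Cbx7, Phc1 or the other two starts of Phc2. Of all 32807 mouse promoter windows 7.15% held it, and of the 15015 windows with at least 9 CpG dinucleotides, the lowest number in a single-start gene of this set, 10.8% did. The genes with it include Phc2, lower in the mutants, and Phc3 and Pcgf2, higher in them. Phc2 has it at the first of its annotated starts only, and its counts do not separate the starts. A link between the motif and the direction of change was not tested. The motif was chosen after these promoters had been read, so its number in them is no test against the shares over all windows. The E2F-type sequences TTTCGCGC and TTTGGCGC, searched on both strands, were in 0 of the 10 windows and in 0.814% of all windows. The 10 windows had a median of 21 CpG dinucleotides and 65.2% GC, against 7 and 52.7% over all windows. A match describes the letters of the window and is not evidence of a bound factor.

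**Figure D1:**
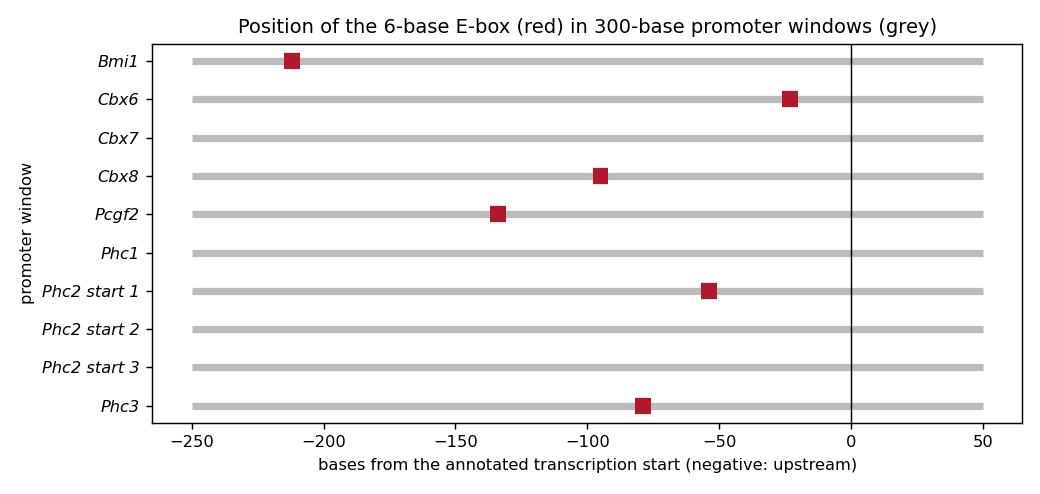
Position of CACGTG (red) in the 10 RefSeq promoter windows (grey) of 8 canonical PRC1 genes, with the horizontal axis in bases from the annotated start. The motif is in 6 windows, with from 20 (Cbx6) to 209 (Bmi1) bases between it and the start, and is not in 4.

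Of the 9 genes, 5 passed an adjusted p of at most 0.01 in Ins/Ins and 5 in Ins/Del, where 58.4% and 62.5% of all tested genes passed. In each line 3 of them were higher and 2 lower, against the shares of 29.0% higher and 29.4% lower over all tested genes in Ins/Ins and of 30.6% and 31.9% in Ins/Del. Both lines were compared with the same 3 control libraries. Phc1 and Phc2 fell in both lines and Pcgf2 and Phc3 rose in both. These 4 genes called the same way in both lines compare with 52.3% of all tested genes, of which 25.6% were higher and 26.7% lower. Cbx6 passed in Ins/Ins alone, with a small difference, and Bmi1 in Ins/Del alone. Given these backgrounds the number of genes called is not a result about canonical PRC1, and what follows is the direction, size and level of each gene. The median log2 fold change of the 9 genes was 0.07 in Ins/Ins and 0.09 in Ins/Del, against 0.004 and -0.01 over all tested genes. Groups of 3 libraries did not overlap for 7 of the 9 genes in Ins/Ins and for 6 in Ins/Del, against 69.1% and 72.8% of all tested genes.

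**Figure D2:**
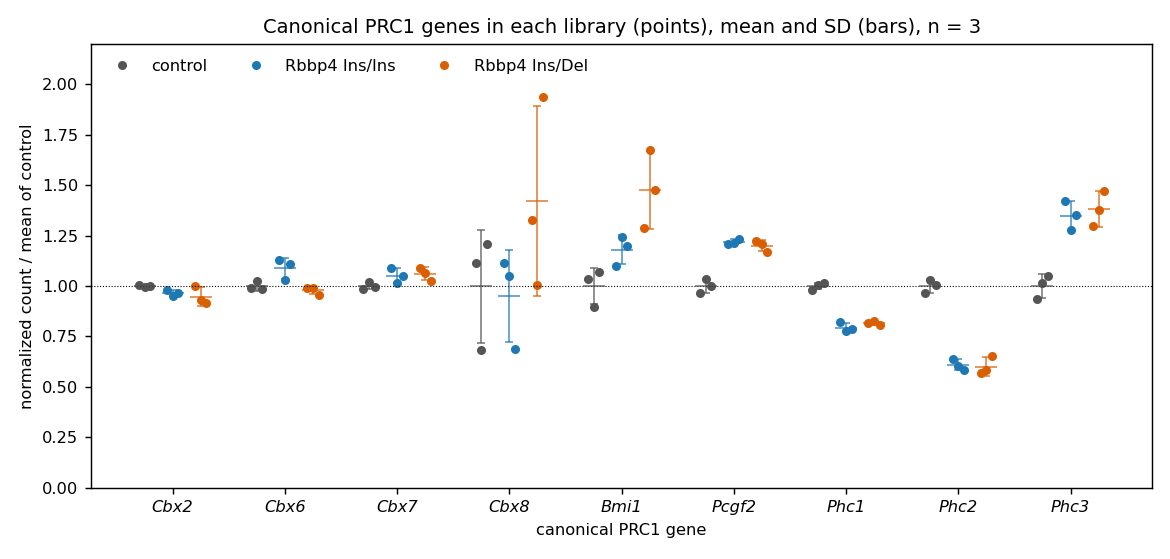
Normalized count of each canonical PRC1 gene in every library (points), divided by the mean of the control, with the mean and SD of 3 libraries (bars) for control, Ins/Ins and Ins/Del. The mutant points of Phc1 and Phc2 lie below all control points and those of Pcgf2 and Phc3 above them, while the groups of Cbx8, the gene with the fewest reads, overlap.

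Among the PHC genes, Phc1 and Phc2 were lower and Phc3 was higher in both mutant lines. Phc1, the most abundant subunit gene of the set, lies on the minus strand of chromosome 6 from 122317731 to 122340561 (positions are those of GENCODE M21 on GRCm38). It had 12738, 13010.2 and 13141 normalized counts in the control, 10622, 10059 and 10177 in Ins/Ins, and 10580.5, 10734 and 10445 in Ins/Del. All mutant libraries were below all control libraries, and those of the mutants overlapped. The mean fell by 20.7% in Ins/Ins and by 18.3% in Ins/Del. The log2 fold change of Phc1 was -0.33 (SE 0.027, adjusted p = 1.45e-13) and -0.29 (SE 0.027, adjusted p = 4.35e-12) by the edgeR quasi-likelihood test (Benjamini-Hochberg).

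Phc2, on the plus strand of chromosome 4 from 128654702 to 128752881, had the largest log2 change of the 9 genes in both lines. Its normalized counts were 633, 678 and 662 in the control, 421, 397 and 385 in Ins/Ins, and 374, 383 and 429 in Ins/Del. Every mutant library was below every control library by a wide margin, and the mutants overlapped. The mean of 658 ± 22.4 (SD, n = 3) fell to 401 ± 18.3 (SD, n = 3), by 39.0%, and to 395 ± 29.7 (SD, n = 3), by 39.9%. On the log2 scale Phc2 changed by -0.71 (SE 0.064, adjusted p = 2.16e-12) and -0.74 (SE 0.065, adjusted p = 7.12e-13) in the edgeR quasi-likelihood test (Benjamini-Hochberg). Its counts are sums over the 3 annotated starts, which were not separated.

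Phc2 is also the one gene of the set near Rbbp4, which lies 554.2 kb away on chromosome 4. This interval was looked at after the values of Phc2 had been seen. Of the 11 tested genes between them, 7 were higher in both lines and 0 lower in both, against 25.6% and 26.7% of all tested genes, with median log2 fold changes of 0.39 in Ins/Ins and 0.38 in Ins/Del. Of the 11, 1 was lower in Ins/Del.

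Phc3, on the minus strand of chromosome 3 from 30899371 to 30969415, moved the other way. It had 393, 426 and 441 normalized counts in the control, 596, 537 and 568 in Ins/Ins, and 545, 577 and 619 in Ins/Del. All 6 mutant libraries were above the highest control library. The mean rose by 35.0% and 38.2%, with log2 fold changes of 0.44 (SE 0.066, adjusted p = 2.78e-07) and 0.47 (SE 0.066, adjusted p = 7.22e-08) in the edgeR quasi-likelihood test (Benjamini-Hochberg). None of the PHC genes differed past the threshold between the mutant lines. The 95% interval of the log2 difference of Ins/Del from Ins/Ins was -0.015 to 0.097 for Phc1, -0.17 to 0.11 for Phc2 and -0.10 to 0.16 for Phc3.

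Of the PCGF genes of canonical PRC1, Pcgf2 rose in both mutant lines and Bmi1 rose in Ins/Del. Pcgf2 (Mel18), on the minus strand of chromosome 11 from 97688823 to 97700497, had 1642, 1755 and 1695 normalized counts in the control, 2054, 2061 and 2094 in Ins/Ins, and 2078, 2051 and 1984 in Ins/Del. The control libraries were the lowest 3, and the mutant groups overlapped. The mean of Pcgf2 rose by 21.9% and 20.1%. Its log2 fold changes were 0.29 (SE 0.038, adjusted p = 1.61e-08) and 0.27 (SE 0.038, adjusted p = 7.47e-08) in the edgeR quasi-likelihood test (Benjamini-Hochberg), and the interval of the difference between the mutants was -0.096 to 0.054.

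Bmi1, a PCGF protein first known as an oncogene product and as a repressor of the Ink4 locus, lies on the plus strand of chromosome 2 from 18677018 to 18686629. It had 248, 215 and 256 normalized counts in the control, 263, 298 and 286 in Ins/Ins, and 308, 401 and 353 in Ins/Del. The 3 groups did not overlap and were in this order, although the lowest Ins/Ins library was close to the highest control. In Ins/Del the mean of Bmi1 rose by 47.8%, a log2 fold change of 0.57 (SE 0.090, adjusted p = 7.77e-07, edgeR quasi-likelihood test, Benjamini-Hochberg). In Ins/Ins it was 18.1% above the control, a log2 difference of 0.23 with a 95% interval of 0.042 to 0.42, which did not pass (adjusted p = 0.0283, same test).

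The direct comparison of the mutant lines called 10.8% of all tested genes and 2 of the 9 canonical PRC1 genes, Bmi1 as higher in Ins/Del (6.17% of all genes) and Cbx6 as lower (4.64%). These 2 were also the only ones of the 9 whose mutant groups did not overlap, against 34.1% of all tested genes. Bmi1 was 25.2% higher in Ins/Del than in Ins/Ins, a log2 difference of 0.33 (SE 0.088, adjusted p = 0.00581, edgeR quasi-likelihood test, Benjamini-Hochberg). This call of Bmi1 was lost in DESeq2 (adjusted p = 0.0247) and without Ins/Ins replicate 1 (adjusted p = 0.0511, edgeR) or replicate 3 (0.0136), or Ins/Del replicate 2 (0.118) or replicate 3 (0.0157). The log2 difference stayed between 0.23 and 0.43 in all alternatives.

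**Figure D3:**
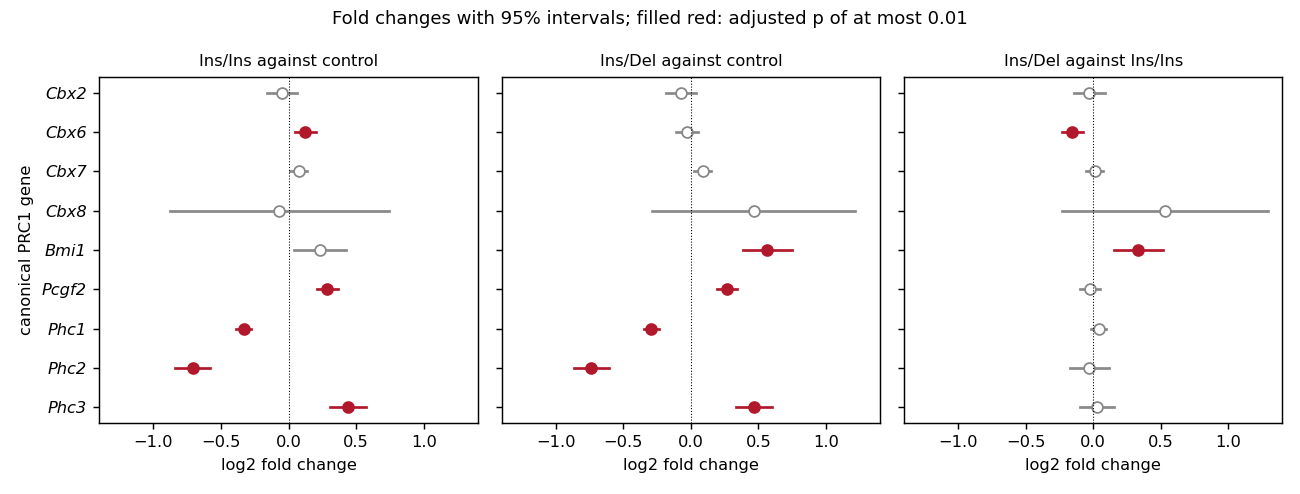
Log2 fold change of each canonical PRC1 gene in the 3 comparisons, with 95% intervals as lines and genes at an adjusted p of at most 0.01 as filled red points. Phc2 and Phc1 lie left of 0 and Phc3 and Pcgf2 right of 0 in both comparisons with the control, and the widest intervals belong to Cbx8.

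The CBX genes stayed closer to the control, with log2 differences between -0.08 (Cbx2 in Ins/Del) and 0.12 (Cbx6 in Ins/Ins) for the 3 with more than a few reads. Cbx7, on the minus strand of chromosome 15 from 79915807 to 79971119, had 4856, 5004 and 4890.4 normalized counts in the control, 5359.7, 4989 and 5172 in Ins/Ins, and 5357, 5244 and 5047 in Ins/Del. All Ins/Del libraries were above the control, and 1 Ins/Ins library lay within its range. The log2 difference of Cbx7 was 0.07 in Ins/Ins (95% interval 0.011 to 0.14, adjusted p = 0.0348) and 0.09 in Ins/Del (0.022 to 0.15, adjusted p = 0.0148), neither past the threshold in the edgeR quasi-likelihood test (Benjamini-Hochberg). In Ins/Del it passed in DESeq2 (adjusted p = 0.00999), with DESeq2's size factors in edgeR (0.00772) and in an edgeR fit of only the groups compared (0.00499). Of its exon bases 1.54% overlap Apobec3 on the other strand.

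Cbx6 lies on the same chromosome and strand as Cbx7, from 79823896 to 79834688. Its normalized counts were 1723, 1783 and 1711 in the control, 1960.5, 1791 and 1926 in Ins/Ins, and 1725, 1722 and 1660.4 in Ins/Del. The Ins/Ins libraries were the 3 highest, the lowest of them just above the control, while the Ins/Del libraries overlapped the control. Cbx6 rose by 8.84% in Ins/Ins, a log2 fold change of 0.12 (SE 0.039, adjusted p = 0.00553), and had a log2 difference of -0.03 in Ins/Del (95% interval -0.11 to 0.052, adjusted p = 0.525) in the edgeR quasi-likelihood test (Benjamini-Hochberg). Between the mutants Cbx6 differed by -0.15 (adjusted p = 0.00471, same edgeR test), the means being 1892 ± 89.7 and 1702 ± 36.5 (SD, n = 3) normalized counts, lower in Ins/Del.

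The calls of Cbx6 depended on the tool and on single libraries. DESeq2 called it neither in Ins/Ins (adjusted p = 0.0175) nor between the mutants (0.0204), and total-count scaling in edgeR lost the first (0.014). The call in Ins/Ins was also lost without control replicate 1 or 3 or Ins/Ins replicate 1 or 3, and the call between the mutants without Ins/Ins replicate 1 or 3 or any 1 of the Ins/Del libraries, with log2 values of 0.11 to 0.16 and -0.19 to -0.13 over all alternatives. The gene Npcd overlaps 5.31% of the exon bases of Cbx6 on its own strand, so reads there could be split between them.

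Cbx2, on the plus strand of chromosome 11 from 119022962 to 119031270, had 696, 689 and 695 normalized counts in the control, 681, 660.1 and 669 in Ins/Ins, and 694, 644 and 634 in Ins/Del. The Ins/Ins libraries were just below the control, and Ins/Del overlapped it. The log2 difference of Cbx2 was -0.05 (95% interval -0.16 to 0.062, adjusted p = 0.441) and -0.08 (-0.19 to 0.035, adjusted p = 0.212) in the edgeR quasi-likelihood test (Benjamini-Hochberg). Cbx8, its neighbour on the minus strand from 119036305 to 119040969, was close to the limit of detection, with 14, 7 and 12 reads in the control, 14, 10 and 7 in Ins/Ins, and 14, 12 and 18 in Ins/Del. The groups overlapped, and the 95% interval of the log2 difference was -0.88 to 0.74 in Ins/Ins and -0.29 to 1.22 in Ins/Del. Changes of Cbx8 within these bounds were not excluded at this depth.

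To compare levels between genes, counts were divided by the length of all exons of a gene and by the effective library size, giving RPKM. In the control the order was Phc1 at 134, Cbx7 at 41.5, Pcgf2 at 26.4, Cbx6 at 8.98, Cbx2 at 8.93, Phc2 at 5.10, Bmi1 at 3.30, Phc3 at 1.32 and Cbx8 at 0.161. Neighbours in this order did not overlap between libraries except Cbx6 and Cbx2. In both mutants the order was the same but for Bmi1 and Phc2, which changed places without overlap. Bmi1 was at 3.90 in Ins/Ins and 4.88 in Ins/Del, and Phc2 at 3.11 and 3.07. Cbx6 and Cbx2 overlapped in Ins/Del as in the control, and lay apart in Ins/Ins, at 9.77 and 8.62. These orders depend on the length used. With the longest coding transcript in place of all exons, Cbx6 and Cbx2 were apart in the control, at 16.4 and 9.98, and Phc2 stayed above Bmi1, at 9.12 against 3.65 in the control, 5.56 against 4.31 in Ins/Ins and 5.49 against 5.39 in Ins/Del, where the libraries overlapped.

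**Figure D4:**
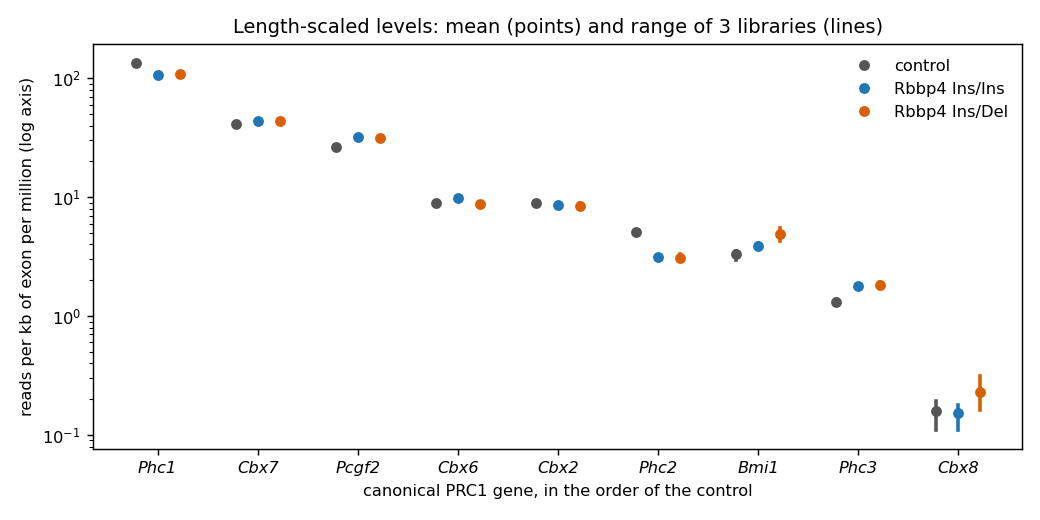
RPKM (log axis) of the 9 canonical PRC1 genes in the order of the control, with the mean (points) and range (lines) of 3 libraries. Levels run from 134 for Phc1 to 0.161 for Cbx8 in the control, and on this length Bmi1 lies below Phc2 in the control and above it in both mutants, which it does not with the longest coding transcript.

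Because the paralogs share a place in the complex, their levels were also summed. The 3 PHC genes together had 137.9 to 142.5 RPKM in the control, 108.8 to 115.0 in Ins/Ins and 113.3 to 115.8 in Ins/Del, so the mutant sums were below the control without overlap, as for Phc1, which made up most of them. Pcgf2 and Bmi1 together averaged 29.7 in the control, 36.1 in Ins/Ins and 36.5 in Ins/Del, and the 4 CBX genes 59.6, 62.3 and 61.5.

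Within each place the make-up moved little. Phc1 was 95.4% ± 0.107 (SD, n = 3) of the PHC sum in the control, 95.6% ± 0.0676 in Ins/Ins and 95.7% ± 0.330 in Ins/Del (exact two-sided permutation p = 0.2 and 0.3 against the control, of which 0.1 is the smallest that 3 against 3 libraries allow). Beneath that, the share of Phc2 was 3.63% in the control, 2.79% in Ins/Ins and 2.68% in Ins/Del, and that of Phc3 was 0.936%, 1.60% and 1.59%. Cbx7 was 69.7% ± 0.226 of the CBX sum in the control, 70.2% ± 0.156 in Ins/Ins and 71.6% ± 0.231 in Ins/Del. The groups of Cbx7 shares did not overlap (exact two-sided permutation p = 0.1 for each pair, 0.225 adjusted over 9 tests of shares), which this design cannot take below 0.05.

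Pcgf2 was 88.9% ± 1.16 of the sum of Pcgf2 and Bmi1 in the control, 89.2% ± 0.576 in Ins/Ins and 86.7% ± 1.60 in Ins/Del. The share was lower in every Ins/Del library than in every Ins/Ins library (exact two-sided permutation p = 0.1, adjusted 0.225) and overlapped the control in both lines. Taken from reads without the division by length, the share of Phc1 went the other way, from 92.3% in the control to 91.4% and 91.6%.

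Of 4 other genes of canonical PRC1, 1 rose in both mutants, against 25.6% of all tested genes. The catalytic subunit Rnf2 (Ring1b) had means of 3302 ± 44.1, 3250.2 ± 126 and 3315 ± 113 normalized counts (SD, n = 3) in control, Ins/Ins and Ins/Del, with log2 differences of -0.02 and 0.01, the second turning to -0.01 when scaled by total counts. Its paralog Ring1 had 103, 129 and 120.2 in the control, 89.8, 105 and 87.7 in Ins/Ins and 113, 80.3 and 84.5 in Ins/Del, with overlapping groups and log2 differences of -0.32 and -0.33 that did not pass (adjusted p = 0.0437 and 0.0325, edgeR quasi-likelihood test, Benjamini-Hochberg). Without Ins/Del replicate 1, Ring1 was called in Ins/Del at -0.50 (adjusted p = 0.0042, same edgeR test).

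Of the SAM-domain genes that join PRC1, Scml2 rose in both lines and Scmh1 fell in Ins/Del. Scml2 had a mean of 66.3 normalized counts in the control, 116 in Ins/Ins and 175 in Ins/Del, with log2 fold changes of 0.81 and 1.41 (adjusted p = 1.74e-06 and 8.18e-13, edgeR quasi-likelihood test, Benjamini-Hochberg). Scmh1 had means of 449, 397 and 351, and fell in Ins/Del by 0.36 on the log2 scale (adjusted p = 2.14e-05), whereas its difference of -0.18 in Ins/Ins did not pass (adjusted p = 0.0228, same edgeR test).

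Of 23 genes of variant PRC1 complexes, 5 rose and 6 fell in Ins/Ins and 6 rose and 8 fell in Ins/Del, near the shares of 58.4% and 62.5% called over all tested genes, with a median log2 fold change of 0.02 in each. Among the PCGF paralogs that define these complexes, Pcgf5 fell, with means of 561 normalized counts in the control, 349.6 in Ins/Ins and 286 in Ins/Del (log2 fold change -0.69 and -0.98). Pcgf1 (0.12 and -0.15), Pcgf3 (-0.11 and -0.05) and Pcgf6 (0.04 and 0.06) did not pass. Pcgf3 in Ins/Ins passed with total counts (adjusted p = 0.00616), without control replicate 2 (0.009) and without Ins/Ins replicate 2 (0.00823, all edgeR), and with a library left out Pcgf1 lay between 0.028 and 0.19 in Ins/Ins and between -0.24 and -0.078 in Ins/Del. The log2 fold changes were -0.70 and -0.38 for Kdm2b, which brings Pcgf1 complexes to CpG islands, and -0.66 and -0.73 for E2f6, a subunit of Pcgf6 complexes, and both genes passed in both lines. Thus of the 6 PCGF paralogs Pcgf2 was called higher in both lines, Bmi1 higher in Ins/Del and Pcgf5 lower in both.

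Of 13 genes of H2A deubiquitination, the reverse of the PRC1 reaction, 2 rose and 2 fell in Ins/Ins and 3 rose and 4 fell in Ins/Del, against 58.4% and 62.5% of all tested genes called. The cofactors Asxl3 (log2 fold change -1.55 and -1.26) and Asxl1 (-0.25 and -0.13) fell in both lines, the second value of Asxl1 being lost without Ins/Del replicate 2 (adjusted p = 0.0102, edgeR quasi-likelihood test, Benjamini-Hochberg), and Mbd6 (0.34 and 0.40) rose in both. Of 11 PRC2 genes, 6 rose in both lines, namely Eed, Suz12, Aebp2, Jarid2, Phf1 and Phf19, and 1 fell in each, Rbbp4 in Ins/Ins and Rbbp7 in Ins/Del, against 25.6% of all tested genes higher in both lines and 29.4% and 31.9% lower in each. Among those called in both lines, the accessory subunits Phf19 (1.55 and 1.47), Aebp2 (0.65 and 0.76) and Jarid2 (0.57 and 0.76) had the largest mean change of the 2 lines. The median log2 fold change of the PRC2 genes was 0.16 in Ins/Ins and 0.11 in Ins/Del.

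The chromobox genes of heterochromatin protein 1, relatives of the Polycomb CBX genes, bind H3 trimethylated at lysine 9. All 3 were called the same way in both lines, as were 52.3% of all tested genes. Cbx5 (-0.37 and -0.33) and Cbx3 (-0.15 and -0.15) were lower and Cbx1 (0.21 and 0.29) was higher. The calls of Cbx3 were lost in DESeq2 (adjusted p = 0.0173 and 0.0296) and without control replicate 1 or 2. The call of Cbx3 in Ins/Ins was also lost without any 1 of the Ins/Ins libraries, and that in Ins/Del without Ins/Ins replicate 1 or Ins/Del replicate 2 or 3 and in a fit of just these groups, with adjusted p up to 0.044 and 0.0456 over the edgeR alternatives. At the Ink4 locus, a known target of Bmi1 and Cbx7, Cdkn2a had means of 95.1, 208 and 251 normalized counts. It rose by 1.12 and 1.39 on the log2 scale, as 1 of 2 Ink4 genes, against 25.6% of all tested genes higher in both lines. Cdkn2b had means of 88.0, 71.9 and 71.7. Its log2 differences of -0.28 and -0.28 did not pass (adjusted p = 0.106 and 0.0997, edgeR quasi-likelihood test, Benjamini-Hochberg), each between -0.44 and -0.14 with a library left out.

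**Figure D5:**
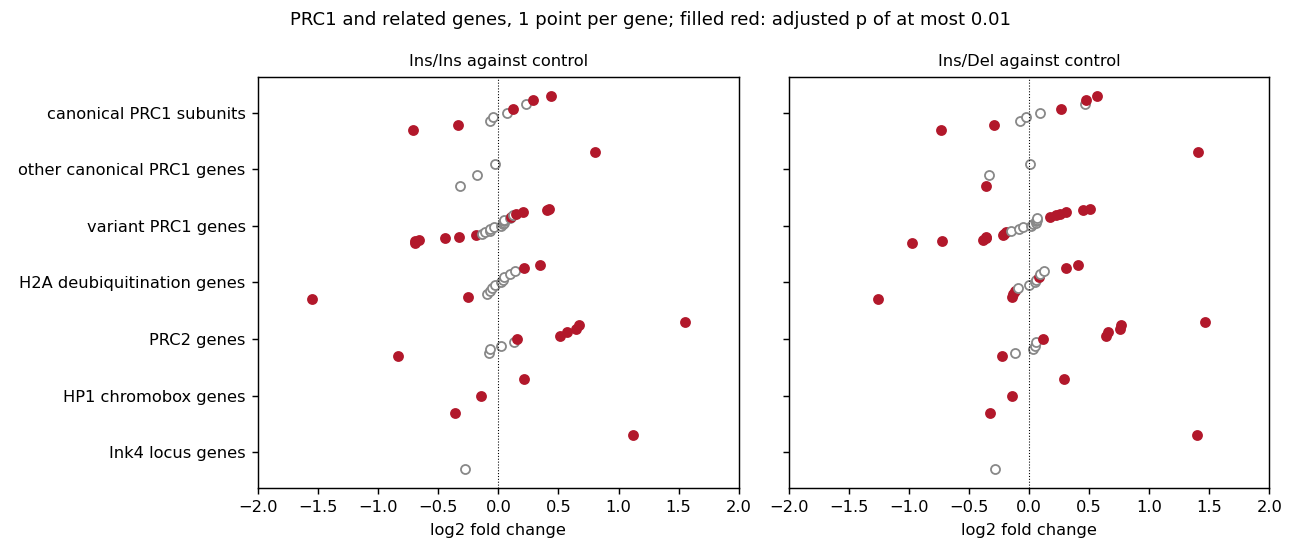
Log2 fold change of the genes of 7 lists (1 point per gene) in Ins/Ins and Ins/Del against the control, with filled red points for an adjusted p of at most 0.01. The canonical PRC1 genes lie between -0.74 (Phc2) and 0.57 (Bmi1) and the PRC2 gene furthest right of 0 in both panels is Phf19 (1.55 and 1.47).

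The genes most like each canonical PRC1 gene over the 9 libraries were found by the Pearson correlation of log2 CPM, given as a description, since the points share 3 groups and the highest of 14125 values is high by selection. The leading genes were Cachd1 for Phc1 (0.996), Lyplal1 for Phc2 (0.996), E330021D16Rik for Phc3 (0.992), Plxdc1 for Pcgf2 (0.996) and Hipk2 for Bmi1 (0.983). For the CBX genes they were Fanca for Cbx7 (0.956), 1700007K13Rik for Cbx6 (0.958), Gamt for Cbx2 (0.953) and 2810001G20Rik for Cbx8 (0.933). The second were Myl9 (0.995) for Phc1, Zfp322a (0.995) for Phc2, Ckmt1 (0.991) for Phc3, Pgbd5 (0.992) for Pcgf2, Rad23b (0.973) for Bmi1, Plekha7 (0.948) for Cbx7, Chchd10 (0.955) for Cbx6, Tmub2 (0.949) for Cbx2 and Msl2 (0.881) for Cbx8. None of these genes is itself a canonical PRC1 gene of the set.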

How the data were processed

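The authors made libraries with the Kapa mRNA HyperPrep kit, aligned reads to mm10 with STAR 2.7.3 and counted them with HTSeq, whose version, annotation and strand setting are not given in the sources used here. The deposited values are raw counts by gene symbol, neither normalized nor filtered, and the total per library ranged from 15838064 to 21366868. These counts were scaled by TMM in edgeR 4.0.16 (R 4.3.3), low genes were dropped by filterByExpr, and the quasi-likelihood model was fitted to all 9 libraries in 3 groups taken from the genotype labels, with Benjamini-Hochberg adjustment over 14125 genes and a call at an adjusted p of at most 0.01, the limit of the study's methods. Standard errors are the log2 fold change divided by the root of the F statistic, and intervals are at 95%. Simulated counts with 200 changed genes tested the fit (13911 genes after the filter). Of these 200, 193 were recovered in the contrast of Ins/Ins and 192 in that of Ins/Del, with 5 false calls in each. Recovery with a share of changed genes near the 58.4% (Ins/Ins) and 62.5% (Ins/Del) called in these data was not tested. The recovered numbers are not split by size of difference, and recovery at the sizes seen for the canonical PRC1 genes was not tested. Levels were divided by the exon length of GENCODE M21, and shares were tested by exact permutation in Python 3.11.15 with scipy 1.17.1. No 2 libraries agreed within sampling noise.

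The canonical PRC1 genes, the related lists and the marker lists were chosen with earlier results of these data known. Named are all canonical PRC1 genes and Rbbp4, Ring1, Rnf2, Scmh1, Pcgf1, Pcgf3, Pcgf5, Pcgf6, Cdkn2a, Cdkn2b, in each list the 3 genes with the largest mean absolute change among those called in both lines, and the 2 genes most like each canonical PRC1 gene. Genes named beyond this rule (other PRC2 genes, markers, overlapping genes) were chosen after their values were seen. Alternatives were DESeq2 1.42.0, its size factors in edgeR, total-count scaling, no filter on low counts, the replicate number as a block, a fit of just the groups of a comparison, a limit of 0.05, each library left out in turn and, for shares, reads without division by length. The longest coding transcript as length was chosen after the data were seen. A gene that the rule first held, beside those listed, is not reported here.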

Additional observations from a re-analysis of the deposited data

Results flagged for a closer look

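The direct test of Ins/Del against Ins/Ins (edgeR quasi-likelihood test, Benjamini-Hochberg, 3 libraries in each line) called 16 of the 65 tested genes of the PRC1 and related lists, against 10.8% of all tested genes, and 7 of the 16 fall under the rule for named genes. The log2 difference of the canonical PRC1 gene Bmi1 was 0.33, with higher counts in all 3 Ins/Del libraries, and that of Cbx6 was -0.15, with lower counts in all 3. Both calls were lost in DESeq2. Among the related genes the log2 differences were 0.89 for Rbbp4, 0.60 for Scml2, 0.31 for Kdm2b, 0.20 for Jarid2 and 0.12 for Asxl1. The values of Rbbp4, Scml2, Kdm2b and Jarid2 passed in all alternatives, and that of Asxl1 was lost without any 1 of 5 mutant libraries, with a highest adjusted p of 0.0533 (same edgeR test). Groups of 3 are too small for a check of single outlying libraries.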

How the results depend on the processing

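Phc1, Phc2, Phc3 and Pcgf2 in both lines and Bmi1 in Ins/Del were called in the same direction in all 16 alternatives. Of the log2 fold changes of the 9 canonical PRC1 genes in the 3 comparisons, 217 values with a library left out and 179 under the other alternatives kept their direction and their side of the threshold, 13 and 4 were no longer called, and 3 and 6 were newly called. The cause of these changes was not tested. Under the scalings tried the median log2 fold change of all genes was at most -0.027 from 0, with total counts. No shared effect of the replicate numbers was seen. Deviations of same-numbered libraries of different lines correlated at -0.0277 to 0.0559, and those of differently numbered libraries at -0.0566 to 0.0619. Whether same-numbered libraries were prepared together cannot be told from this, and the labels do not say. With the number as a block the canonical PRC1 genes called stayed at 5, 5 and 2. In all, 8225, 8795 and 1499 genes were called with the block, against 8252, 8829 and 1527.

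Between the mutants, DESeq2 called 0 canonical PRC1 genes and 1133 genes in all, against 2 and 1527 in edgeR (2 canonical PRC1 genes had an unadjusted p under 0.05 in either tool), and leaving out a library gave 0 to 2 (0 without Ins/Ins replicate 1 or 3 or Ins/Del replicate 2 or 3, and 1 without Ins/Del replicate 1). Over all genes this comparison had 2682 calls at a limit of 0.05, 1014 without Ins/Ins replicate 1 and 988 without Ins/Del replicate 2. At a limit of 0.05, the other canonical PRC1 genes had 3 calls in Ins/Ins in place of 1, and between the mutants the variant PRC1 genes had 10 in place of 4 and the Ink4 genes 1 in place of 0. H2A deubiquitination genes had 4 to 7 calls in Ins/Del with a library left out, the 4 being without Ins/Del replicate 2.

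The shares depended on the length used, and are given in the order control, Ins/Ins, Ins/Del. From reads without division by length Cbx7 was 66.8%, 66.8% and 68.7% of the CBX genes, Phc1 92.3%, 91.4% and 91.6% of the PHC genes and Pcgf2 87.6% and 88.0% in the first 2 groups. With the longest coding transcript the shares were 75.0%, 75.2% and 76.6% for Cbx7, 93.8%, 94.1% and 94.3% for Phc1 and 91.1%, 91.4% and 89.3% for Pcgf2.

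Signs turned with a library left out only in log2 differences that were not called. These ranged from -0.036 to 4.7e-05 for Cbx6 in Ins/Del and from -0.26 to 0.11 for Cbx8 in Ins/Ins. Between the mutants they ranged from -0.014 to 0.039 for Cbx7, -0.086 to 0.012 for Phc2, -0.017 to 0.070 for Phc3, -0.032 to 0.028 for Cbx3, -0.035 to 0.041 for Cdkn2b, -0.012 to 0.13 for Mbd6, -0.18 to 0.0049 for Phf19, -0.19 to 0.088 for Ring1 and -0.0015 to 0.052 for Rnf2. Against the control Rnf2 ranged from -0.045 to 0.021 in Ins/Ins and from -0.021 to 0.029 in Ins/Del. Among the other alternatives the sign turned for Rnf2 in Ins/Del with total counts (-0.010), and between the mutants for Cbx3 without the filter (-0.00018) and for Cdkn2b in DESeq2 (0.0063) and with its size factors (0.0078). With few reads, depth limits Cbx8.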
